A study of Homo sapiens with 4 samples.

Results

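VIM, FN1, CDH2, CDH1, CTNNB1, ZEB1, ZEB2, SNAI1, SNAI2 and TWIST1 are 10 genes by which the mesenchymal state of a carcinoma cell is commonly read. They were taken from the table by their symbols, and 9 of the 10 were among the 14431 genes of the table. CDH2, the cadherin that mesenchymal cells gain, was not among the genes listed and was not analysed here. The RNA came from HGC27, a human gastric cancer cell line, and was measured by RNA sequencing in 2 control libraries and 2 siAARS1 libraries. All cells were grown in glucose-free DMEM with serum and 25 mM exogenous lactate. The siAARS1 cells had received a small interfering RNA that targets the transcript of AARS1, the cytosolic alanyl-tRNA synthetase, which the study examines as an enzyme that attaches lactate to proteins. The labels call the control cells wild type, while the names of their libraries carry NC. Whether the control cells received a control small interfering RNA is therefore uncertain. The labels give 24 h under lactate and the study's text gives another time, so the time is uncertain, and without a group that lacked lactate the values describe the knockdown under lactate only.

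Epithelial cells hold together through CDH1 (E-cadherin), which binds beta-catenin at the membrane. In the epithelial-mesenchymal transition, transcription repressors of the SNAIL and ZEB families bind short E-box words in the promoters of CDH1 and other epithelial genes, while TWIST1 acts beside them, and the cell gains vimentin filaments and a fibronectin matrix. ZEB1 and ZEB2 are themselves held down in epithelial cells by the microRNAs of the miR-200 family, and they repress the genes of these microRNAs in turn. In the stomach, loss of CDH1 is the hallmark of diffuse-type cancer.

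The miR-200 family is shown because ZEB1 and ZEB2, which had the largest changes of the 9 listed genes, are well known targets of it. MicroRNAs themselves were not measured. The mature sequences, from RefSeq on GRCh38.p14, are given with the seed (bases 2 to 8) in capitals, and they fall into 2 groups by seed.
hsa-miR-200b-3p: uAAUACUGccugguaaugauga
hsa-miR-200c-3p: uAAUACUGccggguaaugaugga
hsa-miR-429: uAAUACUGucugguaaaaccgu
hsa-miR-200a-3p: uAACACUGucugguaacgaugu
hsa-miR-141-3p: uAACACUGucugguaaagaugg

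The words that pair with these seeds, CAGTATT and CAGTGTT, were searched on the transcript strand of the 3′ UTRs of GENCODE v29. ZEB1 held 9 of them in 2549 bases (6 CAGTATT and 3 CAGTGTT), and ZEB2 held 9 in 5370 bases (5 CAGTATT and 4 CAGTGTT). Of 12303 listed genes with a 3′ UTR, 5 held at least 9, ZEB1 and ZEB2 among them, which is 0.041%, while 33.3% held at least 1. FN1 held 2 and SNAI2 held 1, and none was found in the 3′ UTRs used for VIM, CDH1, CTNNB1, SNAI1 and TWIST1. These are letter matches and were not measured as sites. Examples of each word, with the match in capitals, are as follows.
ZEB1, chr10:31527624-31527648, plus strand: ttatcttatCAGTATTatcactctt
ZEB1, chr10:31528788-31528812, plus strand: ttgatttaaCAGTGTTatgttaaca
ZEB2, chr2:144388981-144389005, minus strand: acaatgcatCAGTATTatgattcct
ZEB2, chr2:144387611-144387635, minus strand: gctattattCAGTGTTatttataat

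The E-box words CACCTG and CAGGTG, each the reverse complement of the other, were searched in 300-base promoter windows from RefSeq (GRCh38.p14), which run from 250 bases before a start to 50 after it. Of 35116 windows of all genes, 20.6% held at least 1 of them. ZEB1 had 7 windows, of which 2 held a match, and the windows of VIM, FN1, ZEB2 and CTNNB1 held none. No window of CDH1, SNAI1, SNAI2 or TWIST1 was searched. The ZEB1 window with 3 matches is shown because ZEB1 changed most of the 9 listed genes. Counted from the start, its matches begin at -242, -85 and 33. It held the most matches of the 7 ZEB1 windows, whereas the share of all windows with 3 or more, 0.635%, is per window and not per gene.
ZEB1, chr10:31318966-31319265, plus strand: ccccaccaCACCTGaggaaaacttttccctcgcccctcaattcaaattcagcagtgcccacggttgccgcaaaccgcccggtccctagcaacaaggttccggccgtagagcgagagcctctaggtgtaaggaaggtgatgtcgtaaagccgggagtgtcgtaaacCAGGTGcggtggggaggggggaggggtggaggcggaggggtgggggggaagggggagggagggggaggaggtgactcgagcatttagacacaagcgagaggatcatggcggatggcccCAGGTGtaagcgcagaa

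Between 30653210 and 33522573 reads per library fell in listed genes. The library sizes behind the CPM (read counts scaled to a common library size) were 30882696 to 34098340 reads, so 1 read was worth 0.0293 to 0.0324 CPM. AARS1 (listed as AARS) was at 428 and 417 CPM in the control libraries and at 292 and 298 CPM in the siAARS1 libraries, so 69.8% of its control level remained in a partial knockdown. The log2 fold change of AARS1 was -0.52, and -0.14 and -0.22 after the corrections for transcript composition described below, and 11.9% of all genes tested were at least as low. Most epithelial markers were not among the genes listed for HGC27, which is an undifferentiated gastric line. Of 13 markers of gastric or other simple epithelium, 3 were listed (KRT8, MUC1 and CDX2), and their summed level was 44.9 to 45.4 CPM in control and 21.4 to 23.2 CPM in siAARS1 libraries. EPCAM, KRT18, KRT19, MUC5AC, TFF1, TFF2, CLDN18, GKN1, PGC and CDX1 were not among the genes listed. That a gene is not listed does not show that it was not expressed. All 9 fibroblast markers were listed, at a summed 6642 to 6860 CPM in control and 4865 to 4956 CPM in siAARS1 libraries, led by COL3A1 and COL1A1. Of these 9, 4 rose and 5 fell, where 32.6% of all genes tested were called higher and 38.0% lower. After the correction for transcript GC content and length described below 1 was called higher and 7 lower. Under that correction 68.8% of all genes were called and 45.1% were called higher. None of the 3 endothelial markers was listed. The part of these marker levels in the results below was not tested, and fewer cells of a kind and less RNA per cell cannot be told apart in such libraries.

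All 9 listed genes differed between the groups in limma, with adjusted p-values over all genes tested. Higher in siAARS1 were ZEB1, ZEB2 and CTNNB1, and lower were VIM, FN1, CDH1, SNAI1, SNAI2 and TWIST1. As given below, the direction of VIM depended on correction for transcript composition, and that of CTNNB1 on scaling as well as correction. The count has to be read against the whole table, in which 70.7% of 14199 genes tested were called (32.6% higher and 38.0% lower). The 2 siAARS1 libraries lay outside the range of the 2 control libraries for each of the 9 genes, as they did for 85.1% of all genes tested. Called and at least 2-fold higher on the log2(CPM + 1) scale were ZEB1 and ZEB2, against 10.6% of all genes tested.

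**Figure D1:**
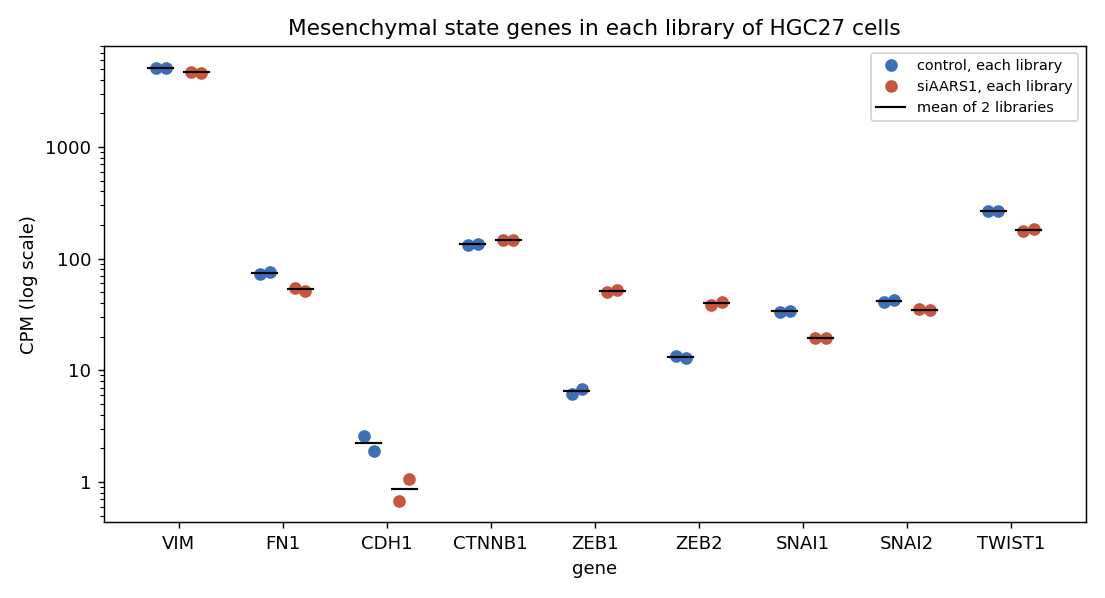
CPM of the 9 listed genes (log axis) in each control library (blue) and each siAARS1 library (red), with bars at the mean of 2 libraries. ZEB1 and ZEB2 stand higher in siAARS1, from 6.50 to 51.2 and from 13.1 to 39.9 CPM on average, while VIM stays near the top at 4655 to 5099 CPM.

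ZEB1 had the largest change of the 9 genes. This zinc finger and homeodomain repressor of epithelial genes (ENSG00000148516; chromosome 10, 31318495 to 31529814, plus strand) was at 6.16 and 6.84 CPM in the control libraries and at 50.03 and 52.3 CPM in the siAARS1 libraries. The control libraries were low and close to each other, and both siAARS1 libraries were high. The read counts behind these values were 210, 217, 1545 and 1739. The mean went from 6.50 ± 0.482 to 51.2 ± 1.61 CPM (SD, n = 2), which was 7.87-fold, and the log2 fold change was 2.80 (95% interval 2.63 to 2.97, adjusted p = 6.48e-18 in limma). It was 1.72 and 1.39 after the corrections for transcript composition described below. Of all genes tested, 40 had a change at least as high, ZEB1 itself among them, which is 0.282%. ZEB1-AS1, a transcript of the opposite strand, shares 366 exonic bases with ZEB1, and the use of strand in the counting is not given in the sources used here, so reads of both may be mixed. ZEB1-AS1 itself went the other way, from 9.03 and 7.69 to 5.76 and 5.90 CPM (log2 fold change -0.45, adjusted p = 0.00145 in limma).

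ZEB2, the paralogue that shares the zinc finger clusters of ZEB1 (ENSG00000169554; chromosome 2, 144364364 to 144524583, minus strand), also rose. It was at 13.3 and 12.8 CPM in the control libraries and at 38.6 and 41.2 CPM in the siAARS1 libraries, with no overlap of the groups. The mean went from 13.1 ± 0.366 to 39.9 ± 1.83 CPM (SD, n = 2), 3.06-fold, with a log2 fold change of 1.54 (95% interval 1.39 to 1.69, adjusted p = 3.36e-14 in limma), which the corrections for transcript composition described below reduced to 0.35 and 0.29. A rise at least as large was seen in 5.35% of all genes tested, a far more common size than that of ZEB1. Of the 2 genes, ZEB2 had the higher CPM in both control libraries and ZEB1 in both siAARS1 libraries.

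The SNAIL repressors and TWIST1 went the opposite way from the ZEB genes. SNAI1 (SNAIL; ENSG00000124216; chromosome 20, 49982999 to 49988886), a zinc finger repressor of CDH1 with a short-lived protein, was at 33.4 and 34.1 CPM in the control libraries against 19.3 and 19.5 CPM after the knockdown. It fell in both siAARS1 libraries to 57.4% of the control mean, by 0.77 on the log2 scale (95% interval -0.91 to -0.63, adjusted p = 1.58e-09 in limma). SNAI2 (SLUG; ENSG00000019549; chromosome 8, 48917604 to 48921740), its close relative, was at 40.9 and 42.5 CPM in the control libraries against 35.1 and 34.4 CPM after the knockdown. The change of SNAI2 was smaller, with a log2 fold change of -0.26 (95% interval -0.38 to -0.13, adjusted p = 0.000569 in limma), and 29.7% of all genes tested had a change at least as low. TWIST1 (ENSG00000122691; chromosome 7, 19020991 to 19117672), a basic helix-loop-helix factor of mesoderm and neural crest, was the most abundant of the 5 repressors and factors, with 265 and 268 CPM in control cells against 176 and 183 CPM after the knockdown. Its log2 fold change was -0.57 (95% interval -0.64 to -0.49, adjusted p = 1.58e-11 in limma), to 67.4% of the control mean. TWIST1 shares 141 exonic bases with a listed antisense gene, so reads of both may be mixed, and VIM, ZEB2 and CDH1 overlap antisense genes of the annotation that were not listed.

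VIM, the intermediate filament protein of mesenchymal cells (ENSG00000026025; chromosome 10, 17228259 to 17237593), was among the most abundant transcripts of these cells. It was at 5131 and 5068 CPM in the control libraries and at 4710.2 and 4599.5 CPM in the siAARS1 libraries, and it had the 5th highest CPM of all listed genes in each of the 4 libraries. The siAARS1 libraries were slightly below the control libraries, at 91.3% of the control mean. The log2 fold change was -0.13 (95% interval -0.21 to -0.06, adjusted p = 0.00303 in limma), close to the median of all genes tested, -0.05. Its direction was not stable, since it was 0.26 and 0.19 under the corrections for transcript composition described below. Under quantile normalization it was 0.00, but that method sets values by rank, and the unchanged rank of VIM fixed this result in advance. FN1, the fibronectin of the extracellular matrix (ENSG00000115414; chromosome 2, 215360440 to 215436172), was at 72.6 and 75.4 CPM in the control libraries against 54.2 and 51.7 CPM after the knockdown. It was lower in both siAARS1 libraries, with a log2 fold change of -0.47 (95% interval -0.58 to -0.37, adjusted p = 3.41e-08 in limma).

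CDH1 was among the lowest genes of the table, at ranks 12279 to 14092 of 14431 by CPM. This gene of E-cadherin (ENSG00000039068; chromosome 16, 68737225 to 68835548) was at 2.55 and 1.89 CPM in the control libraries and at 0.680 and 1.05 CPM in the siAARS1 libraries, with 87, 60, 21 and 35 reads behind these values. Both siAARS1 libraries were below both control libraries, and the replicates of each group differed more in proportion than those of any other gene of the 9. The log2 fold change was -0.79 (95% interval -1.14 to -0.43, adjusted p = 0.000317 in limma) in log2(CPM + 1), where the added 1 shrinks a change at such low values. On the recovered reads it was -1.31 in edgeR (adjusted p = 0.000558). CTNNB1, which encodes beta-catenin, the partner of E-cadherin and the effector of Wnt signalling (ENSG00000168036; chromosome 3, 41194741 to 41260096), was at 134 and 135 CPM in the control libraries and at 146 CPM in each siAARS1 library. It was 1.09-fold higher on average, with a log2 fold change of 0.12 (95% interval 0.04 to 0.20, adjusted p = 0.0106 in limma), but -0.09 after median scaling and -0.34 after the correction for transcript GC content and length. Without control replicate 1 the log2 fold change of CTNNB1 was 0.12 and no longer passed the threshold (adjusted p = 0.0743).

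Per kilobase of the transcript used, the order of the 9 genes changed where the ZEB genes lie. In control libraries the mean CPM per kilobase was 2388 for VIM, 159.9 for TWIST1, 28.3 for CTNNB1, 20.02 for SNAI1, 17.2 for SNAI2, 8.31 for FN1, 1.36 for ZEB2, 1.04 for ZEB1 and 0.454 for CDH1. In siAARS1 libraries it was 2180.0 for VIM, 108 for TWIST1, 30.8 for CTNNB1, 14.3 for SNAI2, 11.5 for SNAI1, 8.17 for ZEB1, 5.95 for FN1, 4.16 for ZEB2 and 0.177 for CDH1. ZEB1 thus stood above FN1 in both siAARS1 libraries (7.98 and 8.35 against 6.09 and 5.81 CPM per kilobase) and below it in both control libraries (0.983 and 1.09 against 8.15 and 8.46). SNAI1 and SNAI2 also changed places. The 2 libraries of each group did not overlap between neighbours in either order, although these levels depend on which transcript stands for each gene.

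The size of a change followed the base composition of the transcript, and the 9 genes ran from 38.5% to 58.2% GC, with none in the highest quintile. Fold change and transcript GC content had a rank correlation of -0.66 across 13819 genes, which are not independent replicates. In the quintile of genes with the lowest GC content (27.9% to 41.3%) the median log2 fold change was 0.77, and 39.4% of the genes were called and at least 2-fold higher. It was 0.21 in the next quintile (to 46.3%), then -0.12, -0.24 and -0.30. ZEB1 (38.5% GC) and ZEB2 (39.1%) lay in the lowest quintile, SNAI2 (41.8%) and CTNNB1 (42.6%) in the next, CDH1 (48.6%) and FN1 (50.2%) in the middle, and VIM (54.1%), TWIST1 (57.2%) and SNAI1 (58.2%) in the one above.

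**Figure D2:**
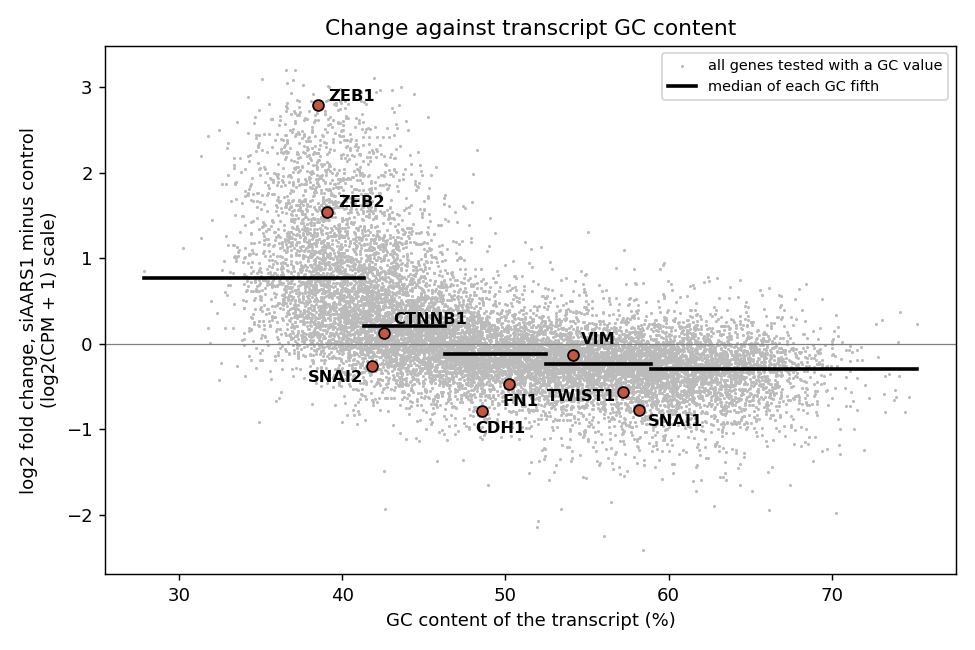
Log2 fold change (siAARS1 minus control) against the GC content of the transcript (%) for all genes tested with a GC value (grey), with black bars at the median of each quintile of GC content and the 9 listed genes in red. ZEB1 and ZEB2 lie above the median of 0.77 of their quintile, and SNAI2 lies below the median of 0.21 of its quintile.

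A pair of corrections took the trend with composition out of each library, which also takes out any true change that follows composition. The whole-transcript correction used the GC content and length of the transcript, and the split correction used those of its coding part and its 3′ UTR separately. With the whole-transcript correction ZEB1 was at 1.72 (95% interval 1.57 to 1.87) and ZEB2 at 0.35 (0.22 to 0.49). With the split correction they were at 1.39 (1.24 to 1.53) and 0.29 (0.16 to 0.43). ZEB1 remained among the largest rises, since 0.456% and 0.393% of all genes were at least as high, whereas for ZEB2 these shares were 25.3% and 31.0%. The median of all genes was moved to 0.12 and 0.14 by these corrections, to -0.25 by median scaling and to -0.15 by quantile normalization. Relative to that median, ZEB2 was at 0.24 and 0.16 after the corrections against 1.59 before them.

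For the other genes the corrections gave, the whole-transcript one first, -0.32 and -0.27 for SNAI1, -0.10 and -0.11 for TWIST1 and -0.48 and -0.26 for SNAI2. Before the corrections SNAI1 was at -0.77 and TWIST1 at -0.57, so both falls became smaller. Relative to the median of all genes, SNAI1 went from -0.72 to -0.43 and -0.41, and TWIST1 from -0.51 to -0.22 and -0.25. FN1 was at -0.29 and -0.70 and CDH1 at -0.67 and -0.70. VIM turned to 0.26 and 0.19, and CTNNB1 was at -0.34 and 0.12. All 9 genes were called under each correction, where 68.8% and 69.9% of all genes were called. After the whole-transcript correction, 3 of the 9 were higher (ZEB1, ZEB2 and VIM), against 45.1% of all genes. Relative to the median of all genes, VIM stayed between -0.10 (median scaling) and 0.15 with the CPM as deposited, under both scalings, in edgeR and under both corrections, CTNNB1 between -0.46 and 0.26, and ZEB1 was at 1.25 or more.

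**Figure D3:**
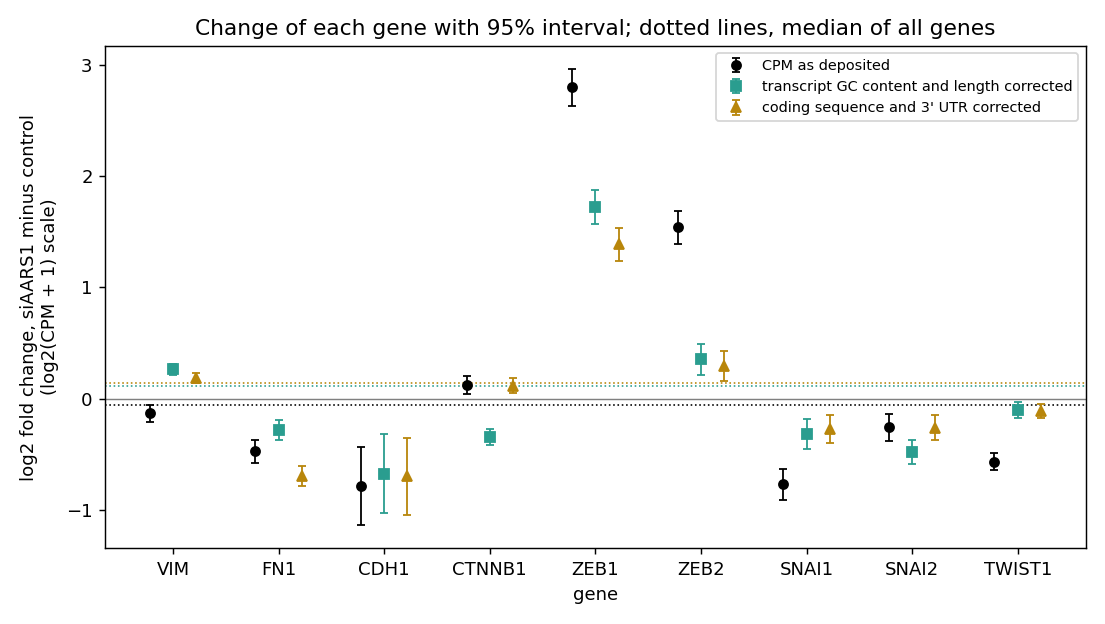
Log2 fold change (siAARS1 minus control) of the 9 genes with 95% intervals from the CPM as deposited (black), after the whole-transcript correction (green) and after the split correction (gold), with dotted lines at the median of all genes. ZEB1 stays at 1.39 or higher, ZEB2 goes from 1.54 to 0.35 and 0.29, VIM crosses zero under both corrections and CTNNB1 under the whole-transcript correction.

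Of 10 genes of the cadherin-catenin adhesion complex, which surround E-cadherin and beta-catenin at the adherens junction, 9 were listed, 7 fell and 1 rose. Over all genes tested 38.0% were called lower and 32.6% higher. The list had a median of -0.29 on the log2 scale, against -0.05 over all genes tested. After the whole-transcript correction, 5 were lower and 2 higher, where 68.8% of all genes were called and 45.1% were called higher. CDH3 (P-cadherin) fell from 5.88 ± 0.687 to 1.72 ± 0.241 CPM (SD, n = 2; log2 fold change -1.34), and NECTIN2 (listed as PVRL2), an immunoglobulin-type adhesion receptor, from 62.8 ± 0.499 to 35.5 ± 0.749 CPM (-0.80). JUP (plakoglobin, the relative of beta-catenin) was called at -0.55, on 1.49 and 0.689 CPM. Without control replicate 2 it was at -0.35 (adjusted p = 0.154 in limma) and without siAARS1 replicate 2 at -0.50 (adjusted p = 0.0686), neither past the threshold. PKP4, a plakophilin of the p120-catenin family, rose from 68.1 ± 1.81 to 82.2 ± 2.997 CPM (0.27), although after median scaling it was at 0.06 and not called.

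Few epithelial genes were listed, and they did not move in one direction. Of 23 genes of the epithelial state 10 were listed and 9 tested, of which 5 fell and 2 rose, with a median of -0.43. Called were 77.8%, against 70.7% of all genes tested. After the whole-transcript correction 4 were lower and 3 higher, where 68.8% of all genes were called and 45.1% were called higher. KRT8, a keratin of simple epithelia, fell from 24.9 ± 0.283 to 5.84 ± 1.08 CPM (SD, n = 2; log2 fold change -1.93), and CLDN7, a tight junction claudin, from 15.2 ± 0.473 to 5.83 ± 0.777 CPM (-1.25). TJP1 (ZO-1, a tight junction scaffold) rose from 39.4 ± 2.18 to 119 ± 0.870 CPM (1.57). TJP1 was at 1.19 and 0.53 and KRT8 at -1.56 and -1.49 after the corrections. The transcript used for KRT8 had a coding part of only 96 bases and a 3′ UTR of 2190 bases, so its corrected values depend on that choice of transcript.

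Of 20 mesenchymal effectors 17 were listed, 13 fell and 2 rose, with a median of -0.53. All genes tested were called lower in 38.0% and higher in 32.6% of cases. After the whole-transcript correction 9 effectors were lower and 3 higher, where 68.8% of all genes were called and 45.1% were higher. POSTN (periostin, a matrix protein of stroma) rose from 34.9 ± 0.272 to 229.9 ± 8.49 CPM (SD, n = 2; log2 fold change 2.69), and was at 1.97 and 1.40 after the corrections. FAP, a surface protease of activated fibroblasts, rose from 9.01 ± 1.21 to 23.8 ± 0.128 CPM (1.31), and was at 0.73 and, not called, 0.16. MMP2, a gelatinase, fell from 117 ± 1.44 to 43.9 ± 2.53 CPM (-1.40), and was at -0.99 and -0.98.

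Other transcription factors tied to the transition were called about as often as all genes. Of 13 factors 10 were listed, 4 fell and 3 rose (70% called, against 70.7% of all genes tested), with a median of -0.16. After the whole-transcript correction 6 were lower and 2 higher, where 68.8% of all genes were called and 45.1% were called higher. TCF4 (the E-protein E2-2, which pairs with TWIST1) rose from 29.4 ± 1.39 to 86.2 ± 0.915 CPM (SD, n = 2; log2 fold change 1.52), and was at 0.28 and 1.00 after the corrections. SOX9, a factor of cartilage and stem cells, was at 2.55 ± 0.622 in control and 1.09 ± 0.388 CPM in siAARS1 libraries (-0.77), and SNAI3, the third SNAIL gene, at 1.01 ± 0.185 and 0.326 ± 0.0495 CPM (-0.60). SNAI3 was at -0.40 after the split correction and no longer called. On the recovered reads JUP, SOX9 and SNAI3 were at -1.06, -1.20 and -1.59 in edgeR.

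Cofactors and degradation enzymes of the SNAIL and ZEB repressors changed by less than 2-fold. All 10 were listed, 4 rose and 4 fell (80% called, against 70.7% of all genes tested). The median was -0.05, with no log2 fold change above 0.68 or below -0.18. After the whole-transcript correction 5 were higher and 2 lower, where 68.8% of all genes were called and 45.1% were called higher. FBXO11, a ubiquitin ligase subunit that targets SNAIL proteins, went from 41.1 ± 3.19 to 66.5 ± 2.45 CPM (0.68), the deacetylase HDAC2 from 72.2 ± 1.94 to 112 ± 2.70 CPM (0.63), and FBXO45 from 22.3 ± 0.988 to 33.6 ± 1.65 CPM (0.57). The chromatin remodeller SMARCA4, a ZEB1 cofactor, went from 832 ± 2.80 to 737 ± 27.6 CPM (-0.18). After the whole-transcript correction, FBXO11, HDAC2 and SMARCA4 turned sign to -0.02, -0.67 and 0.30, and FBXO45 was at 0.03.

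In the TGF-beta pathway, which induces the SNAIL and ZEB genes, 14 of 15 genes were listed, 7 rose and 5 fell, with a median of 0.09. All genes tested were called higher in 32.6% and lower in 38.0% of cases. After the whole-transcript correction 4 of the list were higher and 4 lower, where 68.8% of all genes were called and 45.1% were called higher. The ligand TGFB1 went from 132 ± 1.76 to 88.8 ± 1.06 CPM (log2 fold change -0.57), and was at -0.04 and -0.03 after the corrections, not called. The receptor TGFBR1 went from 28.7 ± 0.391 to 55.4 ± 3.64 CPM (0.92), and turned to -0.14 after the whole-transcript correction. TGFBR3 (betaglycan) was at 0.61, at 0.34 without control replicate 1 and, not called, at 0.23 after the whole-transcript correction. SKIL, a SMAD corepressor, was at 1.16 (4.28 ± 0.239 to 10.8 ± 0.0347 CPM) and turned to -0.06 and -0.30 after the corrections.

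Of 23 genes of the beta-catenin destruction complex, its receptors and TCF factors 21 were listed, 6 rose and 11 fell (81.0% called, where 70.7% of all genes tested were called and 32.6% were called higher), with a median of -0.10. After the whole-transcript correction 12 were higher and 6 lower, where 68.8% of all genes were called and 45.1% were called higher. APC, the scaffold on which beta-catenin is marked for degradation, rose from 3.88 ± 0.713 to 32.6 ± 2.84 CPM (SD, n = 2; log2 fold change 2.79), and was at 1.61 and 0.35 after the corrections. The Wnt coreceptor LRP6 rose from 26.5 ± 0.0481 to 74.8 ± 1.60 CPM (1.46), and was at 0.32 and 0.15. PYGO1, a chromatin-binding cofactor of beta-catenin, was at 1.07 and turned to -0.30 after the whole-transcript correction. The Wnt inhibitor DKK1 fell from 4.91 ± 0.0566 to 1.86 ± 0.207 CPM (-1.05), and was at -1.06 and -0.94.

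**Figure D4:**
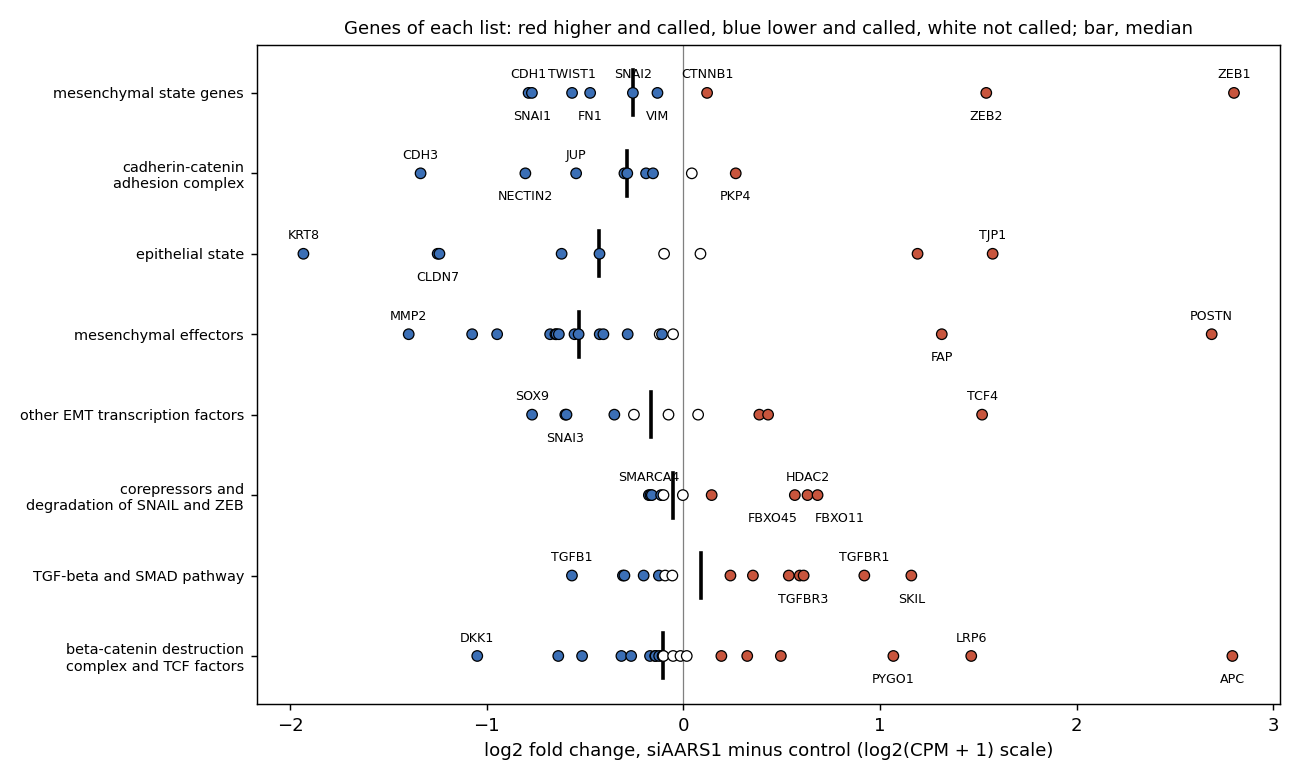
Log2 fold change (siAARS1 minus control) of each tested gene, by list, with red for higher and called, blue for lower and called, white for not called and a bar at the list's median. Medians lie between -0.53 (mesenchymal effectors) and 0.09 (TGF-beta and SMAD pathway), and POSTN and APC lie close to ZEB1, at 2.69 and 2.79 against 2.80, before any correction for composition.

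The genes whose centred log2(CPM + 1) profile over the 4 libraries was nearest to that of ZEB1 were AHCTF1, PTPN13 and NOL8, with Euclidean distances of 0.0371, 0.0445 and 0.0606. They are known as a nuclear pore assembly protein, a protein tyrosine phosphatase and a nucleolar protein. AHCTF1 went from 23.8 to 172 CPM, PTPN13 from 19.4 to 141 CPM and NOL8 from 9.82 to 76.3 CPM. The genes nearest to VIM were TMEM164, ST7-AS1 and RBM4, at distances of 0.0037, 0.0078 and 0.0087, with log2 fold changes of -0.13, -0.13 and -0.13. With 4 libraries in 2 groups, such a distance mainly compares the sizes of the changes.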

How the data were processed

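RNA-seq was measured in 4 libraries, 2 per group, grouped by sample title. The authors deposited CPM values for 14431 genes, each above 1 CPM in at least 1 library. No mitochondrially encoded gene was listed, so a gene may be missing for a reason other than a low level. The submitters' processing notes name hg38 and RSEM 1.3.3. The aligner, annotation and use of strand are not given in the sources used here. In all libraries 100% of the values were whole multiples of the CPM of 1 read within 0.001 CPM. A gene at 0 reads could be as high as 3 reads, or 0.0880 to 0.0971 CPM, by counting error alone. The chi-square per gene between replicates was 3.63 and 3.62, above sampling noise. The labels do not say that replicates were separate cultures, so p-values measure only the spread between these libraries, which may be technical. An exact permutation test of 2 against 2 libraries cannot go below 0.333.

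The main test was limma 3.58.1 (R 4.3.3, eBayes with a trend) on log2(CPM + 1) for the 14199 genes whose mean reached 1 CPM in either group, with Benjamini-Hochberg adjustment over all of them and a threshold of 0.05. Fold changes are differences of log2(CPM + 1). No test of single genes is named in the study's methods read here. The genes and lists were chosen with earlier results of these data known. Besides the 9 listed genes, the text names, from each list, up to 3 called genes with the largest absolute log2 fold change, plus up to 1 in the other direction where those share a direction, and the 3 genes nearest in profile to ZEB1 and to VIM. ZEB1-AS1 was named because it overlaps ZEB1. Alternatives were a pseudocount of 0.1, no filter, median scaling, quantile normalization, a replicate block, leaving out each library, a threshold of 0.01, edgeR 4.0.16 and DESeq2 1.42.0 on the recovered reads, and the whole-transcript correction (smooth trends of mgcv 1.9.3). The split correction was added after the data were seen. Sequences and coordinates are of GENCODE v29 on GRCh38 (the longest coding transcript of a gene), with GC values for 97.2% of genes and both coding sequence and 3′ UTR for 85.5%. The fits were tested on simulated data. The blood cell marker list is not reported here.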

Additional observations from a re-analysis of the deposited data

How the results depend on the processing

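Against 10032 genes called, the alternatives run called 8355 to 11277, and 8 or 9 of the 9 listed genes were called. With the replicate block 10389 genes were called and the call of none of the 9 listed genes and 32 other named genes refitted changed (ZEB1-AS1 and genes named only as markers were not among them). The labels do not say that a number marks a pair, and same-numbered libraries deviated together with a correlation of 0.118. Higher genes made up 46.2% of the calls, 30.8% after median scaling, 65.6% with the whole-transcript correction of GC content and length (65.4% when blocked) and 70.8% with the split correction. Of 135 values of the 9 genes under alternatives, 126 kept direction and call, 3 lost the call (VIM at 0.00 under quantile normalization, CTNNB1 at 0.12 without control replicate 1 and at a threshold of 0.01) and 6 reversed. Of 479 values of the other named genes, 430 kept both, 27 lost the call and 22 reversed. Under the whole-transcript correction, alone and with the replicate block, the reversed values were 0.26 (VIM), -0.34 (CTNNB1), -0.023 (FBXO11), -0.67 (HDAC2), 0.30 (SMARCA4), -0.058 (SKIL), -0.14 (TGFBR1), -0.30 (PYGO1), 0.18 (TMEM164) and 0.18 (ST7-AS1). Under the split correction (coding part and 3′ UTR) they were 0.19 (VIM), -0.54 (FBXO11), -0.75 (HDAC2), 0.31 (SMARCA4), -0.30 (SKIL), 0.29 (TMEM164) and 0.040 (RBM4). Median scaling gave -0.088 for CTNNB1. The cause was not tested. The 0.00 of VIM under quantile normalization was fixed by its unchanged rank. Fits that leave out a library assume that the lone sample varies like the other group. With 2 libraries a group, at this depth, CDH1 (21 to 87 reads) was the least precise of the 9 genes.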
